A study of Oryza sativa with 6 samples.

Results

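The deposited gene table of rice (Oryza sativa) root tips holds 47 loci, of 56962 in all, whose description contains the word proteasome, and 45 of them had enough counts to be tested. RNA was sequenced from root tips of the mutant lad, also named sr1 in the labels, and of the wild type J10, with 3 libraries per genotype. Seedlings of both genotypes had been cultured at 25 °C for 6 days after sprouting, and 0.5 cm of the root tip was taken. The labels name neither the mutated locus nor the number of plants behind a library, so p-values measure the spread between these libraries, which may be technical. The series title names cell division and the tracheary elements of the xylem, and the comparison here is of proteasome transcripts between lad and J10 root tips.

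The proteasome is the protease that breaks down proteins tagged with ubiquitin. Its barrel-shaped core, the 20S particle, is built from rings of alpha and beta subunits, and the 19S regulatory particle on its ends binds, unfolds and feeds in the tagged protein. In plant roots the pathway is known for removing the Aux/IAA repressors once auxin has been perceived. By description, 24 of the 47 loci were alpha or beta subunits of the core and 6 were classed as regulatory particle subunits. A further 12 carried the PCI domain, and 5 were regulators or assembly factors that bind the core or the assembled particle. The PCI domain occurs in regulatory particle subunits and also in the COP9 signalosome and the translation factor eIF3. Those 12 loci cannot be assigned to the proteasome from the description alone. The same holds for the loci among the 6 that are described as Rpn7 or COP9 signalosome subunit 1. None of the 47 was described as an ATPase, and the ATPase subunits of the regulatory particle were not analysed here.

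Of the core loci 4 of 22 fell in lad (18.2%, against 20.3% of all tested genes), a share near the background. Of the regulatory particle loci 4 of 6 fell (66.7%), and all these decreases were small. The 3 largest changes lay in genes of proteins that bind the particle from outside, while the regulator gene PI31 did not pass. The activator subunit 4 gene rose about 2-fold in lad and both Ecm29 genes rose, whereas the assembly chaperone 4 gene fell. Of the 45 tested loci, 4 rose and 14 fell by edgeR's quasi-likelihood test, in which a locus counted as changed when its p, adjusted by Benjamini-Hochberg over 22624 genes, was below 0.05. That is 8.89% higher and 31.1% lower, against 24.9% higher and 20.3% lower over all tested genes. In either direction 40.0% of the loci passed, against 45.2% of all tested genes, so the share that changed was near the background. The values of the genotypes did not overlap at 25 of the 45 loci, 21 lower and 4 higher in lad, while 56.8% of all tested genes had no overlap, 26.6% lower and 30.2% higher. The median log2 change, lad minus J10, was -0.24 over the 45 loci and 0.02 over all tested genes, and 37 of the 45 (82.2%) were negative, against 48.8% of all tested genes. With library totals 32 of the 45 were negative, and 43.2% of all tested genes. Changes were small: 38 of the 45 (84.4%) lay within 0.5 of 0 on the log2 scale, as did 54.1% of all tested genes. The number that fell varied when single libraries were left out. It was 26 without J10 replicate 1, 6 without J10 replicate 2 and 4 without J10 replicate 3. Among the lad libraries it was 3 without replicate 1, 14 without replicate 2, as with all libraries, and 7 without replicate 3. In either direction, calls among the proteasome loci went from 18 with all libraries to 7 without lad replicate 1 and 10 without lad replicate 3. Over all tested genes they went from 10229 to 8198 and 8322. The number of proteasome loci that fell also varied with the scaling of the libraries. With upper-quartile factors 23 fell, where 23.5% of all genes did, and with library totals 8 fell, where 16.1% did.

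**Figure D1:**
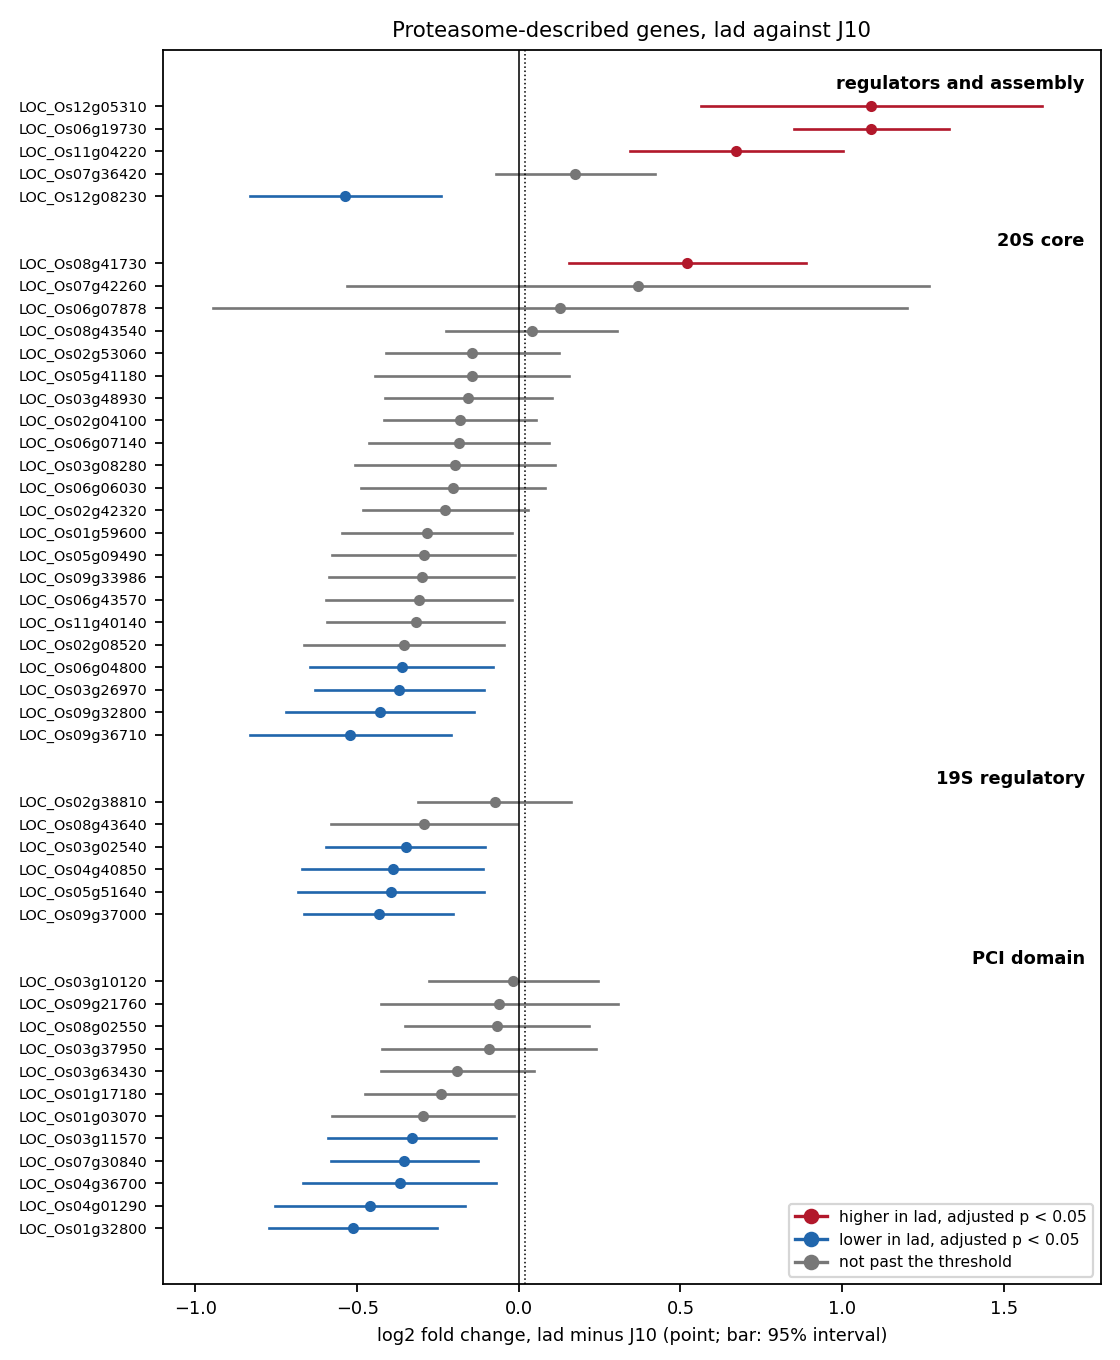
Log2 fold change, lad minus J10, of the 45 tested loci (points) with 95% intervals (bars), by class; red is higher and blue lower in lad at an adjusted p below 0.05, grey did not pass, and the dotted line is the median of all tested genes (0.02). The 3 loci with the highest values are activator subunit 4 and both Ecm29 loci, while the core, regulatory particle and PCI loci crowd between -0.52 and 0.04 except for 3 weakly expressed core loci.

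Library depth was 16405022 to 18816338 counts in lad and 19030866 to 20693114 counts in J10. The 4 loci listed as root tip markers (LOC_Os01g63510, LOC_Os07g39820, LOC_Os11g03110 and LOC_Os02g51110) had counts in all 6 libraries. Of these, 3 changed (75%, against 45.2% of all tested genes). LOC_Os02g51110, described as aquaporin-like, measured 425 ± 75.7 CPM (counts at a locus relative to the library total, scaled by TMM) in lad and 179 ± 56.1 CPM in J10 (SD, n = 3 each), a log2 change of 1.24 (edgeR adjusted p = 0.000884). LOC_Os01g63510, described by a homeobox domain, measured 5.13 ± 1.69 CPM in lad and 13.3 ± 1.69 CPM in J10, a log2 change of -1.38 (edgeR adjusted p = 0.00097). LOC_Os07g39820 also fell, with a log2 change of -0.52 (edgeR adjusted p = 0.00538), and LOC_Os11g03110 did not pass (-0.31, edgeR adjusted p = 0.133). The 11 photosystem II loci, taken as markers of green tissue, summed to 4.54 to 6.00 CPM in lad and 5.94 to 6.94 CPM in J10, and 4 of them had no count in any library. The 10 markers of dividing cells, which include the replication clamp PCNA and ribonucleotide reductase, summed to 518, 571 and 498 CPM in lad replicates 1, 2 and 3, against 758, 819.9 and 776 CPM in J10 replicates 1, 2 and 3. Of these 10 genes 7 fell (70%, against 20.3% of all tested genes). The genotypes did not overlap in the sum, and each marker had counts in every library. The part of the root tip and dividing-cell markers in the values of the proteasome loci was not tested. In root tips taken whole, fewer cells of a type and less RNA per cell cannot be told apart.

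The activator subunit 4 locus LOC_Os06g19730 (chromosome 6, 11264736 to 11281718, plus strand, in the deposited coordinates, for which the sources used here name no rice build) is described by the C-terminal domain of the relative of mammalian PA200 and yeast Blm10, a large single-chain protein that caps the core in place of the regulatory particle. It measured 264, 230 and 274 CPM in lad replicates 1, 2 and 3, against 124, 119 and 118 CPM in J10 replicates 1, 2 and 3. The lowest lad library was well above the highest J10 library. The log2 change was 1.09 ± 0.11 (SE), a fold of 2.13 (edgeR adjusted p = 2.2e-05). Under 14 processing alternatives its log2 change stayed between 1.03 and 1.18 and it passed the threshold in each (adjusted p at most 0.000675).

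Ecm29 is known from yeast as a large adaptor that associates with the proteasome and helps to hold or check the joint between core and regulatory particle. The table has a locus for it on chromosome 11, LOC_Os11g04220 (1718964 to 1735147, minus strand), and another on chromosome 12, LOC_Os12g05310 (2366315 to 2382941, minus strand). The chromosome 11 locus measured 23.9, 21.6 and 18.5 CPM in lad replicates 1, 2 and 3, against 12.4, 14.5 and 13.2 CPM in J10 replicates 1, 2 and 3, a log2 change of 0.67 ± 0.15 (SE, edgeR adjusted p = 0.00409). The chromosome 12 locus measured 34.7, 45.0 and 52.6 CPM in lad replicates 1, 2 and 3, against 29.3, 14.4 and 18.5 CPM in J10 replicates 1, 2 and 3, a log2 change of 1.09 ± 0.24 (SE, edgeR adjusted p = 0.00381). At both loci every lad library lay above every J10 library, although J10 replicate 1 came close at the chromosome 12 locus. The ends of these chromosomes carry a recently duplicated segment in rice, and reads of near-identical copies may have been split between the loci, so each single value is uncertain. The sum of both loci does not depend on that split if each read was counted once, which is not known. This sum was 58.6, 66.6 and 71.1 CPM in lad replicates 1, 2 and 3, against 41.7, 28.9 and 31.7 CPM in J10 replicates 1, 2 and 3. Its mean was 65.4 ± 6.35 CPM in lad and 34.1 ± 6.75 CPM in J10 (SD, n = 3 libraries each), a ratio of 1.92. Of the summed counts, 66.9% in lad and 59.4% in J10 were at the chromosome 12 locus (means of 3 libraries). The deposited table also gives that locus the family label zf-CCHC, a zinc knuckle. Its gene model has 7326 bases, against 5526 bases for the chromosome 11 locus. Per kilobase of gene model both were low, at 3.14 CPM per kb on chromosome 11 and 4.42 CPM per kb on chromosome 12 (means of the 6 libraries).

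The remaining regulators did not move together. Proteasome assembly chaperone 4, LOC_Os12g08230 (chromosome 12, 4199301 to 4202874, plus strand), is known from mammals as a factor that helps to build the alpha ring of the core. It measured 21.3, 22.6 and 25.6 CPM in lad replicates 1, 2 and 3, against 29.0, 36.9 and 35.0 CPM in J10 replicates 1, 2 and 3. The genotypes did not overlap, and the gene fell with a log2 change of -0.54 ± 0.13 (SE, edgeR adjusted p = 0.00763). The PI31 locus LOC_Os07g36420, whose mammalian relative was named as an inhibitor of the core, measured 37.1, 39.3 and 44.4 CPM in lad replicates 1, 2 and 3 and 37.5, 35.4 and 34.1 CPM in J10 replicates 1, 2 and 3. Its genotypes overlapped and it did not pass (log2 change 0.18, 95% interval -0.07 to 0.42, edgeR adjusted p = 0.224).

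**Figure D2:**
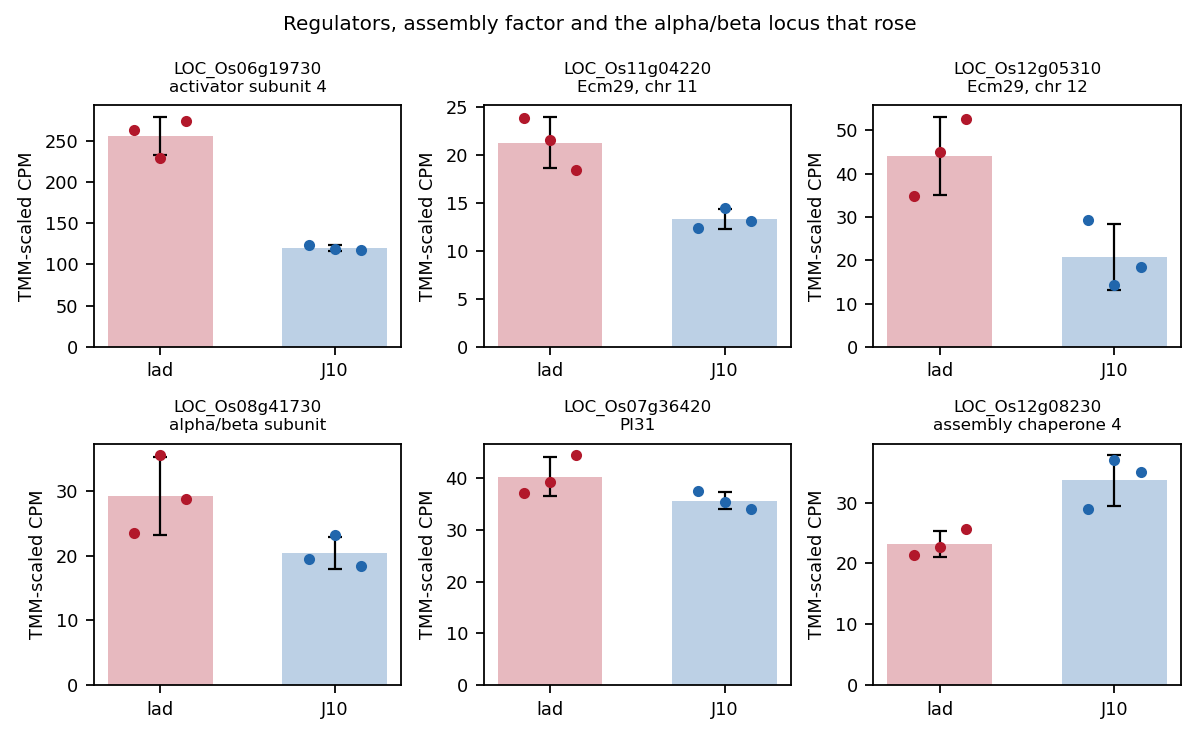
TMM-scaled CPM (y axis) of 6 loci in the 3 lad libraries (red, left) and the 3 J10 libraries (blue, right); bars are means, whiskers SD and points single libraries. The activator subunit 4, both Ecm29 loci and the alpha/beta locus LOC_Os08g41730 lie higher in every lad library than in any J10 library, assembly chaperone 4 lies lower, and PI31 overlaps.

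The 24 alpha and beta subunit loci of the core fell into 3 ranges of level. Per kilobase of gene model, 19 loci lay between 67.1 and 306 CPM per kb as the mean of the 6 libraries, and together they held 99.2% of the counts of the class. The highest was LOC_Os06g06030, at 285 CPM per kb in lad and 328 CPM per kb in J10. A further 3 loci were low: LOC_Os08g41730 at 22.5 CPM per kb, LOC_Os07g42260 at 1.08 CPM per kb and LOC_Os06g07878 at 0.53 CPM per kb, as means of the 6 libraries. LOC_Os06g07978 and LOC_Os07g28590 had no count in any library, which allows a level of at most 0.145 to 0.183 CPM per library from counting error alone (3 counts of the total). LOC_Os07g42260 overlaps LOC_Os07g42250 on the opposite strand, and because no source says whether the counting used strand, its reads cannot be told from that gene's.

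**Figure D3:**
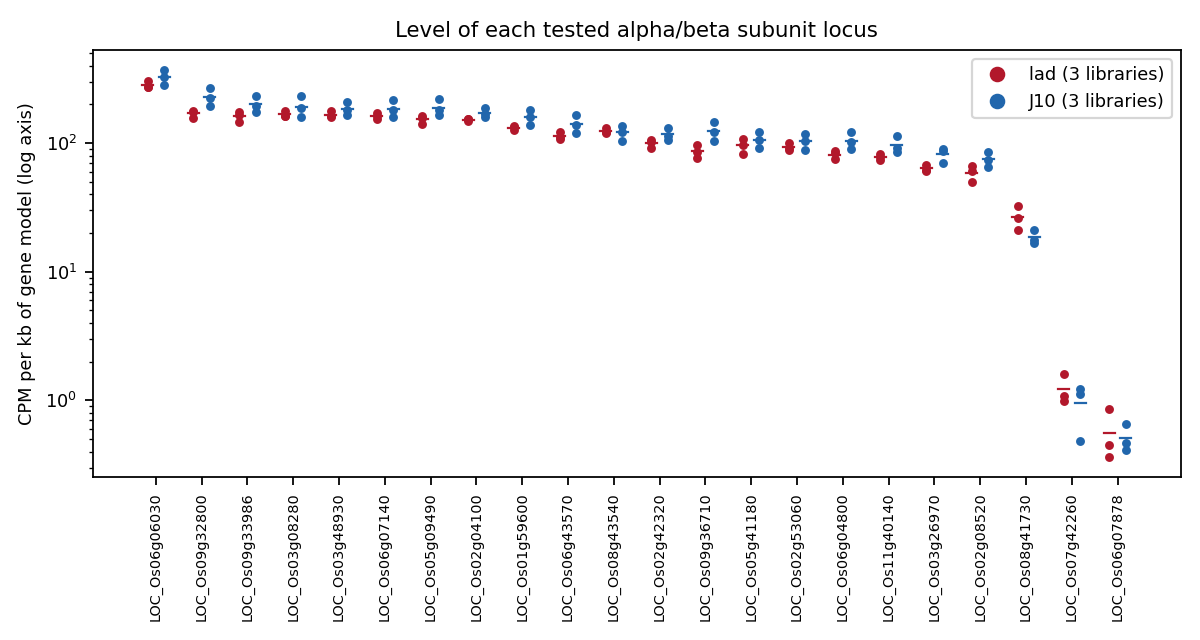
Level of the 22 tested alpha and beta subunit loci in CPM per kb of gene model (log axis), with the 3 lad libraries in red left of the 3 J10 libraries in blue, and short lines at the means. A run of 19 loci spans 67.1 to 306 CPM per kb as means, LOC_Os08g41730 lies below it and is higher in lad, and the last 2 loci stand near 1 CPM per kb or less.

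Among the 22 tested core loci 4.55% rose and 18.2% fell, against 24.9% and 20.3% of all tested genes, so the share that fell was near the background. Of the 19 abundant ones, a group set apart by level after the values were seen, 4 fell and 15 did not pass (edgeR), and 18 of the 19 had a negative log2 change, or all 19 with upper-quartile factors. Their log2 changes had a median of -0.28 and a spread of 0.13 (SD over loci), against 0.02 and 1.40 over all tested genes. The cut by level leaves out weak loci, which the set of all tested genes includes. Over all 22 tested core loci the median was -0.22 and the SD 0.25. LOC_Os09g36710 (chromosome 9, 21171653 to 21174067, plus strand) measured 89.9, 113 and 101 CPM in lad replicates 1, 2 and 3, against 122, 171 and 143 CPM in J10 replicates 1, 2 and 3, a log2 change of -0.52 ± 0.14 (SE, edgeR adjusted p = 0.0116). LOC_Os09g32800 (chromosome 9, 19562275 to 19565838, plus strand) measured 184, 205 and 205 CPM in lad replicates 1, 2 and 3, against 226, 312 and 262 CPM in J10 replicates 1, 2 and 3, a log2 change of -0.43 ± 0.13 (edgeR adjusted p = 0.0216). At both loci all J10 libraries lay above all lad libraries. LOC_Os03g26970 (78.8, 88.2 and 81.0 CPM in lad, against 91.2, 117 and 112 CPM in J10, replicates 1, 2 and 3) fell with a log2 change of -0.37 ± 0.12 (edgeR adjusted p = 0.0257). LOC_Os06g04800 (84.7, 97.7 and 94.0 CPM in lad, against 101, 138 and 116 CPM in J10, replicates 1, 2 and 3) fell with -0.36 ± 0.13 (edgeR adjusted p = 0.0398). Here too the genotypes did not overlap, as for 9 of the 19 abundant loci and for 26.6% of all tested genes in that direction.

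Each of these 4 core calls was lost when some single library was left out, while its log2 change stayed negative under every alternative. The call for LOC_Os09g36710 was lost without lad replicate 1 (highest adjusted p over the alternatives 0.0579), and that for LOC_Os09g32800 without lad replicate 1, J10 replicate 2 or J10 replicate 3 (at most 0.0896). Those for LOC_Os03g26970 and LOC_Os06g04800 were lost without lad replicate 1 or 3 or J10 replicate 2 or 3, and with library totals (at most 0.0938 and 0.143, edgeR). Without lad replicate 1 no core locus fell by edgeR, against 13 without J10 replicate 1. With all libraries, 10 core loci were lower at an unadjusted p below 0.05, and DESeq2 called 5 and limma voom 4 of them lower after adjustment. In either direction 50% of the tested core loci had an unadjusted p below 0.05 (edgeR), near the 52.9% of all tested genes. The most abundant locus, LOC_Os06g06030, measured 352, 390.0 and 353 CPM in lad replicates 1, 2 and 3, against 361, 479.6 and 421 CPM in J10 replicates 1, 2 and 3, and did not pass (log2 change -0.20, 95% interval -0.49 to 0.08, edgeR adjusted p = 0.222). The one abundant locus with a positive value was LOC_Os08g43540, at 180, 185 and 196 CPM in lad, against 157, 206 and 182 CPM in J10 (replicates 1, 2 and 3), with a log2 change of 0.04 (95% interval -0.22 to 0.30) that was -0.02 with upper-quartile factors and -0.09 without J10 replicate 1. The 15 abundant loci that did not pass had log2 changes between -0.35 and 0.04 and adjusted p-values between 0.0572 and 0.81 (edgeR), and 6 of their 95% intervals lay below 0. LOC_Os11g40140 was the closest to the threshold, at 91.6, 102 and 97.3 CPM in lad replicates 1, 2 and 3, against 106, 142 and 114 CPM in J10 replicates 1, 2 and 3, which did not overlap. The 2 weakest tested loci overlapped between the genotypes. LOC_Os07g42260 measured 2.06, 1.90 and 3.06 CPM in lad, against 2.37, 2.14 and 0.919 CPM in J10 (replicates 1, 2 and 3). LOC_Os06g07878 measured 1.35, 0.713 and 0.570 CPM in lad, against 1.03, 0.732 and 0.648 CPM in J10 (replicates 1, 2 and 3).

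LOC_Os08g41730 (chromosome 8, 26342315 to 26344539, plus strand) was the exception among the core loci. It measured 23.5, 35.5 and 28.7 CPM in lad replicates 1, 2 and 3, against 19.5, 23.2 and 18.4 CPM in J10 replicates 1, 2 and 3. It rose with a log2 change of 0.52 ± 0.17 (SE, edgeR adjusted p = 0.0255), but lad replicate 1 was only just above J10 replicate 2. The call was lost without lad replicate 2 or 3 or J10 replicate 1 or 3 (adjusted p up to 0.136, edgeR). Its description does not say which subunit it encodes or whether it shares reads with an abundant copy.

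Of the 6 regulatory particle loci 4 fell (66.7%, against 20.3% of all tested genes) and 2 did not pass, with a median log2 change of -0.37. LOC_Os09g37000 (chromosome 9, 21338761 to 21342208, minus strand), described by the C-terminal domain of a regulatory subunit, measured 106, 119 and 117 CPM in lad replicates 1, 2 and 3, against 146, 166 and 150.0 CPM in J10 replicates 1, 2 and 3. Its genotypes were clearly apart, with a log2 change of -0.43 ± 0.10 (SE, edgeR adjusted p = 0.00639), and the call held under all 14 alternatives. The other locus with that description, LOC_Os08g43640, measured 112, 135 and 122 CPM in lad replicates 1, 2 and 3, against 127, 172 and 153 CPM in J10 replicates 1, 2 and 3, which overlapped, and it did not pass (log2 change -0.29, edgeR adjusted p = 0.0883). LOC_Os05g51640 (chromosome 5, 29617739 to 29622958, minus strand) encodes Rpn13, a receptor of the regulatory particle for ubiquitin chains. It measured 64.6, 78.3 and 68.5 CPM in lad replicates 1, 2 and 3, against 79.0, 107 and 92.4 CPM in J10 replicates 1, 2 and 3, and fell with a log2 change of -0.40 ± 0.13 (edgeR adjusted p = 0.029). The highest lad value and the lowest J10 value nearly met.

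The other 3 loci of this class of 6 were described as Rpn7 or subunit 1 of the COP9 signalosome, which are related proteins. The description does not tell a proteasome lid subunit from a signalosome subunit, so the counts and sums of the class may include signalosome genes. LOC_Os04g40850 (chromosome 4, 24240921 to 24243770, plus strand) measured 177, 208 and 182 CPM in lad replicates 1, 2 and 3, against 215, 281 and 248 CPM in J10 replicates 1, 2 and 3, a log2 change of -0.39 ± 0.13 (edgeR adjusted p = 0.0276). LOC_Os03g02540 (chromosome 3, 935043 to 939214, minus strand) measured 67.3, 75.6 and 78.6 CPM in lad replicates 1, 2 and 3, against 85.5, 103 and 94.1 CPM in J10 replicates 1, 2 and 3, a log2 change of -0.35 ± 0.11 (edgeR adjusted p = 0.0247). Both fell without overlap between the genotypes. LOC_Os02g38810 overlapped, at 39.2, 36.1 and 42.0 CPM in lad and 41.2, 43.3 and 39.0 CPM in J10 (replicates 1, 2 and 3), and did not pass (log2 change -0.07, 95% interval -0.31 to 0.16, or 0.02 with library totals). The calls for LOC_Os04g40850, LOC_Os03g02540 and LOC_Os05g51640 were lost without lad replicate 1, J10 replicate 2 or J10 replicate 3, and the call for LOC_Os04g40850 and that for LOC_Os05g51640 also without lad replicate 3. With library totals LOC_Os03g02540 and LOC_Os05g51640 did not pass. Over the alternatives the edgeR adjusted p reached 0.106 for LOC_Os04g40850, 0.103 for LOC_Os03g02540 and 0.113 for LOC_Os05g51640.

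Of the 12 PCI domain loci 5 fell (41.7%, against 20.3% of all tested genes) and 7 did not pass, with a median log2 change of -0.27. All 12 log2 changes were negative, but only 8 were with library totals, without lad replicate 3 or without J10 replicate 2. LOC_Os01g32800 (chromosome 1, 17999299 to 18002878, minus strand) measured 58.0, 65.2 and 68.9 CPM in lad replicates 1, 2 and 3, against 82.6, 103 and 88.3 CPM in J10 replicates 1, 2 and 3. This was the largest decrease of the class, with a log2 change of -0.51 ± 0.12 (SE, edgeR adjusted p = 0.00508), a wide gap between the genotypes and a call under all 14 alternatives. LOC_Os04g01290 (chromosome 4, 219523 to 222825, minus strand) measured 196, 236 and 188 CPM in lad replicates 1, 2 and 3, against 247, 317 and 289.8 CPM in J10 replicates 1, 2 and 3, a log2 change of -0.46 ± 0.13 (edgeR adjusted p = 0.0161). LOC_Os07g30840 (chromosome 7, 18253474 to 18257977, minus strand) measured 72.9, 73.9 and 82.7 CPM in lad replicates 1, 2 and 3, against 90.7, 101 and 102 CPM in J10 replicates 1, 2 and 3, a log2 change of -0.35 ± 0.10 (edgeR adjusted p = 0.0171). LOC_Os03g11570 (chromosome 3, 5999891 to 6003856, plus strand) measured 143, 176 and 163 CPM in lad replicates 1, 2 and 3, against 187, 222 and 197 CPM in J10 replicates 1, 2 and 3, a log2 change of -0.33 ± 0.12 (edgeR adjusted p = 0.0402). None of these loci overlapped between the genotypes. LOC_Os04g36700, with a log2 change of -0.37, also fell (edgeR adjusted p = 0.0458).

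Of these 5 calls, those for LOC_Os04g01290 and LOC_Os07g30840 were lost without lad replicate 1 or J10 replicate 3, and the first also without lad replicate 3. Those for LOC_Os03g11570 and LOC_Os04g36700 were lost without lad replicate 1 or 3 or J10 replicate 2 or 3, and with library totals, and the second also without lad replicate 2. The PCI locus with the highest level per kilobase, LOC_Os03g63430, stood at 129 CPM per kb in lad and 147 CPM per kb in J10. It measured 243, 259 and 232 CPM in lad replicates 1, 2 and 3, against 261, 294 and 282 CPM in J10 replicates 1, 2 and 3. These values did not overlap, yet it did not pass (log2 change -0.19, 95% interval -0.43 to 0.05, edgeR adjusted p = 0.17). The 7 loci that did not pass had log2 changes between -0.30 and -0.02 and adjusted p-values between 0.0796 and 0.921 (edgeR).

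The PCI loci near 0 were also the weakly expressed ones, a grouping seen in the values and not tested. LOC_Os03g37950 stood at 17.1 CPM per kb as the mean of the 6 libraries, with a log2 change of -0.09. LOC_Os08g02550 stood at 23.6 CPM per kb with -0.07, and LOC_Os09g21760 at 15.3 CPM per kb with -0.06. LOC_Os03g10120, at 10.8 CPM per kb, had -0.02, and it overlaps LOC_Os03g10110 on the opposite strand. At these 4 loci the genotypes overlapped, and each turned positive with library totals, without lad replicate 3 and without J10 replicate 2. The remaining 8 PCI loci lay between 38.2 CPM per kb at LOC_Os01g17180 and 138 CPM per kb at LOC_Os03g63430, with log2 changes from -0.51 at LOC_Os01g32800 to -0.19 at LOC_Os03g63430. LOC_Os01g03070, which had the most CPM of the PCI loci in J10, before division by length, measured 241, 264 and 213 CPM in lad replicates 1, 2 and 3, against 258, 321 and 303 CPM in J10 replicates 1, 2 and 3. Lad replicate 2 overlapped J10 replicate 1 there, and it did not pass (log2 change -0.30, edgeR adjusted p = 0.0796).

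The proteasome loci also shared an order among the libraries of one genotype. All 19 abundant core loci had the order J10 replicate 2, then 3, then 1 from high to low, an order that 6115 of the 22624 tested genes had. In lad, replicate 2 was the highest at 17 of the 19 and replicate 1 the lowest at 16. Of the 22624 tested genes, these were 7303 and 7035. Summed over the 24 core loci, lad replicates 1, 2 and 3 stood at 2948, 3301 and 3117 CPM, against 3196, 4237 and 3629 CPM in J10 replicates 1, 2 and 3. The lad and J10 ranges of this sum overlapped, since lad replicate 2 exceeded J10 replicate 1. The regulatory particle sum did not overlap, at 566, 652 and 611 CPM in lad replicates 1, 2 and 3, against 694, 872 and 776 CPM in J10 replicates 1, 2 and 3. The loci share their libraries and the scaling factor of each, so the common order is not independent evidence for each locus.

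The 3 cellulose synthase loci listed as markers of the xylem secondary wall (LOC_Os01g54620, LOC_Os10g32980 and LOC_Os09g25490) ran the other way among the J10 libraries. They summed to 333, 216 and 273 CPM in lad replicates 1, 2 and 3, against 439, 171 and 285 CPM in J10 replicates 1, 2 and 3. J10 replicate 1, with the lowest core sum, had the highest cellulose synthase sum, and J10 replicate 2 the reverse. None of the 3 loci passed by edgeR, DESeq2 or limma voom, and 0 had an unadjusted p below 0.05. Their part in the spread of the proteasome loci was not tested.

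**Figure D4:**
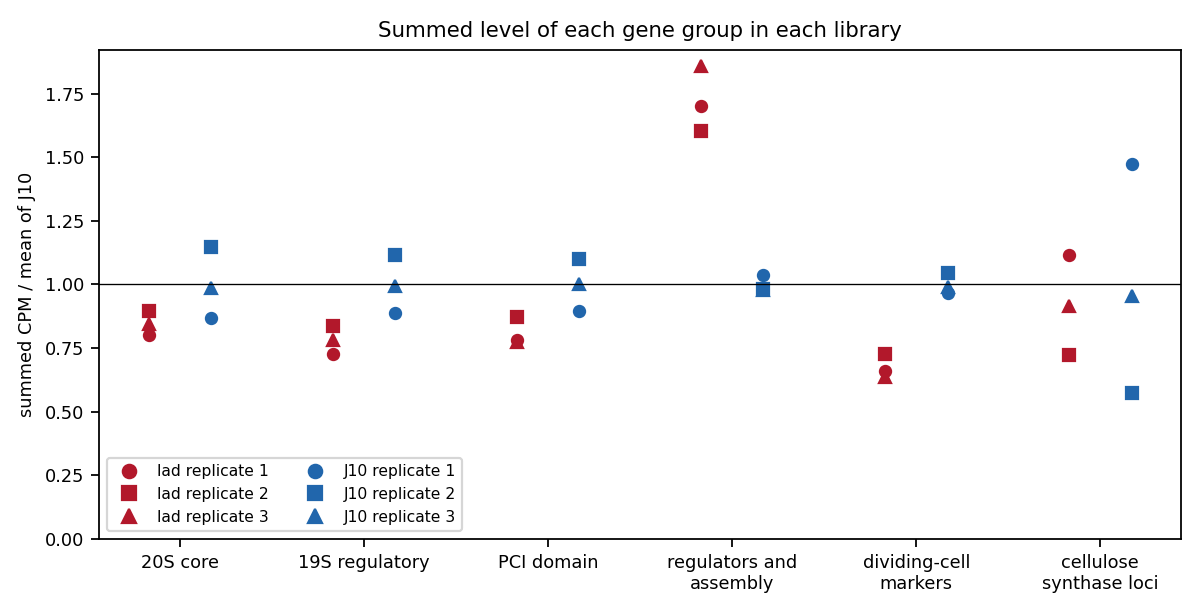
Summed CPM of each gene group divided by its mean over the J10 libraries (y axis), for lad (red, left) and J10 (blue, right), with a symbol per replicate number. Core, regulatory particle and PCI sums are lowest in J10 replicate 1 and highest in J10 replicate 2 among J10, the cellulose synthase sum is reversed, and the regulators and assembly group, in which activator subunit 4 has most of the counts, is higher in every lad library.

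Ratios within a library are free of the scaling between libraries, but the mean core sum in lad was 0.847 times that in J10, which raises the lad ratio of every gene set against it. For every 1000 counts of the core class, activator subunit 4 had 89.5, 69.6 and 88.0 counts in lad replicates 1, 2 and 3, against 38.8, 28.0 and 32.5 counts in J10 replicates 1, 2 and 3. The mean ratio was 82.3 ± 11.1 in lad and 33.1 ± 5.43 in J10 (SD, n = 3 each), 2.49 times as high in lad. Both Ecm29 loci together had 19.9, 20.2 and 22.8 counts per 1000 core counts in lad replicates 1, 2 and 3, against 13.0, 6.82 and 8.72 in J10 replicates 1, 2 and 3, so these ratios did not overlap either. Assembly chaperone 4 had 7.23, 6.86 and 8.21 counts per 1000 core counts in lad replicates 1, 2 and 3, against 9.07, 8.72 and 9.63 in J10 replicates 1, 2 and 3, which was lower in every lad library. PI31 had 12.6, 11.9 and 14.2 counts per 1000 core counts in lad replicates 1, 2 and 3, against 11.7, 8.35 and 9.39 in J10 replicates 1, 2 and 3, and here lad replicate 2 was just above J10 replicate 1. LOC_Os08g41730, itself a core locus, had 7.96, 10.8 and 9.22 counts per 1000 core counts in lad replicates 1, 2 and 3, against 6.10, 5.47 and 5.08 in J10 replicates 1, 2 and 3. The 6 regulatory particle loci had 192, 197 and 196 counts per 1000 core counts in lad replicates 1, 2 and 3, against 217, 206 and 214 in J10 replicates 1, 2 and 3, with no overlap and a lad mean 0.920 times the J10 mean. The PCI loci had 416, 415 and 389 counts per 1000 core counts in lad and 440.3, 408 and 433 in J10 (replicates 1, 2 and 3), which overlapped.

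**Figure D5:**
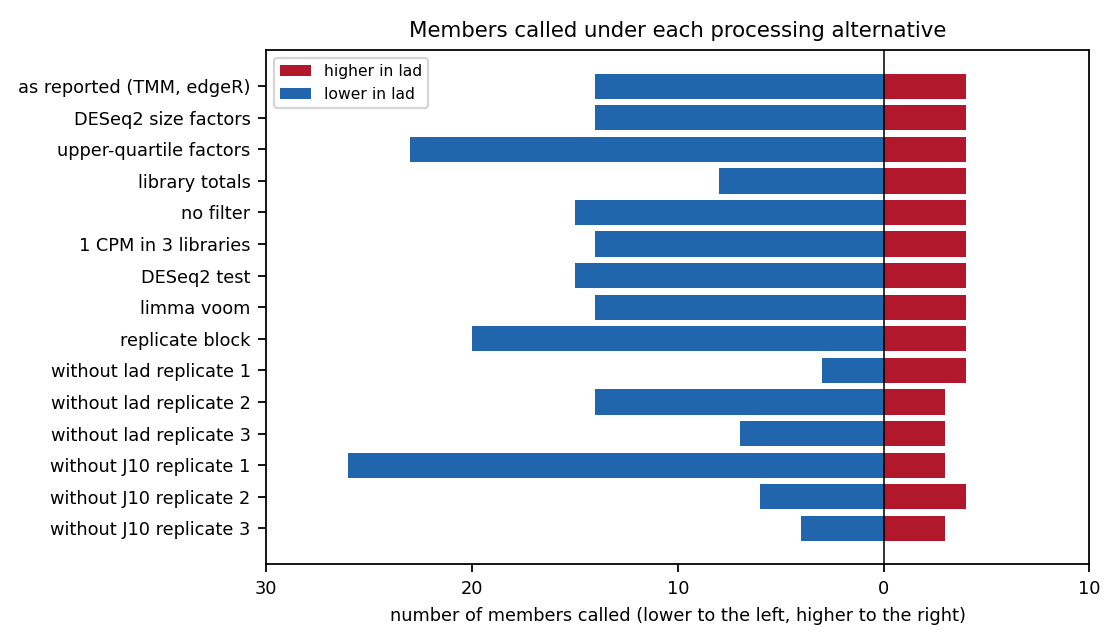
Number of proteasome loci called lower (blue, to the left) and higher (red, to the right) in lad under the reported settings and 14 alternatives. The number higher stays at 3 or 4, while the number lower runs from 3 without lad replicate 1 to 26 without J10 replicate 1.

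Other genes of the ubiquitin pathway and genes of autophagy were counted from text patterns on the descriptions. A gene that matched several patterns was counted once in the total. Over these 481 tested genes, autophagy genes included, 109 rose (22.7%, against 24.9% of all tested genes). Of the same genes 50 fell (10.4%, against 20.3%), and the median log2 change was 0.08. Of 44 ubiquitin-conjugating enzyme (E2) genes, whose products hand ubiquitin to the ligases, 17 rose (38.6%) and 3 fell (6.82%). Over all tested genes these shares were 24.9% and 20.3%. In either direction 45.5% of the E2 genes changed, against 45.2% of all tested genes. Examples were LOC_Os10g39120 (166 ± 22.5 CPM in lad and 88.1 ± 8.36 CPM in J10, n = 3 each) and, lower, LOC_Os01g62244 (83.9 ± 5.81 CPM in lad and 113 ± 5.82 CPM in J10). Of 28 ubiquitin domain genes, 9 rose (32.1%) and 8 fell (28.6%), among them LOC_Os02g41820 (288 ± 62.5 CPM in lad and 50.8 ± 2.66 CPM in J10) and LOC_Os04g59560 (42.4 ± 0.684 CPM in lad and 69.2 ± 6.12 CPM in J10).

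Ligase components and deubiquitinases moved in both directions too, and the shares here are to be read against 24.9% higher and 20.3% lower over all tested genes. Of 18 U box ligase genes 7 rose (38.9%) and 2 fell (11.1%). Of 297 F-box genes, which encode the substrate receptors of cullin ligases, 60 rose (20.2%) and 30 fell (10.1%), both below those shares. Of 8 SKP1 genes, which link F-box proteins to cullin, 1 rose (12.5%) and 7 did not pass. Of 7 cullin genes 0 passed by edgeR, DESeq2 or limma voom, with 1 higher and 1 lower at an unadjusted p below 0.05. Of 50 deubiquitinase genes, which remove ubiquitin, 8 rose (16.0%) and 4 fell (8.0%). Of 12 genes with the JAB1/MPN/Mov34 domain, found in the lid of the regulatory particle and in the signalosome, 1 rose (8.33%) and 3 fell (25.0%). Of 4 Ufd1 genes, partners of the segregase CDC48, 1 rose (25.0%) and 3 did not pass.

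Autophagy, the other main route of protein breakdown, was counted beside the proteasome. Of 16 autophagy genes 8 rose, where 24.9% of all tested genes did, and 0 fell by edgeR, DESeq2 or limma voom, with 1 lower at an unadjusted p below 0.05. The median log2 change of the 16 was 0.44. LOC_Os04g45570, the autophagy-related protein 13 gene, measured 55.9, 41.8 and 50.7 CPM in lad replicates 1, 2 and 3, against 23.9, 22.7 and 29.2 CPM in J10 replicates 1, 2 and 3 (edgeR adjusted p = 0.000332). LOC_Os04g53240, one of the Atg8 genes, whose products coat the growing autophagosome membrane, measured 15.3, 15.2 and 21.5 CPM in lad replicates 1, 2 and 3, against 7.82, 6.70 and 8.86 CPM in J10 replicates 1, 2 and 3 (edgeR adjusted p = 0.000772). In both genes every lad library lay above every J10 library. Whether these lists differ from the proteasome loci was not tested.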

How the data were processed

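Read counts per gene in 6 root tip libraries, 3 of lad and 3 of J10, were taken from the table the authors deposited, whose whole numbers were treated as counts that had not been normalized. Per the submitters' processing notes, the tools include Bowtie 0.12.2 and the builds listed are mm8 and mm9; both are of mouse and cannot be the source of rice loci. The sources used here do not give the counting tool, strand setting, annotation or rice build. Loci are named as deposited, and 0 of the 47 matched the RefSeq gene table, so no sequence is shown. Gene length, another deposited value, was used for CPM per kb.

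Genes were filtered with filterByExpr and libraries were scaled by TMM (factors 0.924 to 1.04). They were tested two-sided with edgeR 4.0.16 (R 4.3.3), quasi-likelihood, genotype as the only term, 4 residual degrees of freedom, Benjamini-Hochberg over 22624 genes, threshold 0.05. SE is the absolute log2 change over the root of F, and 95% intervals use the moderated degrees of freedom. The procedure was tested on simulated counts. Depth was 16405022 to 20693114 counts per library, and limits at 0 cover counting error only. Replicate libraries were distinct (a chi-square test of their counts gave at least 9.03 per degree of freedom).

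The loci, classes and lists were chosen with earlier results of these data known. Values in every library are given, per class, for up to 4 loci per direction with a mean of at least 5 CPM and the lowest adjusted p, for the highest level per kb and for calls against the class majority. Other members were added. In pathway lists, genes came from the 2 lowest adjusted p per direction. A pattern for deubiquitinases also matched 13 tested genes described by NOTUM or microtubule, which were left out after the descriptions were seen. No description matched the ubiquitin-activating enzymes. Alternatives were DESeq2 1.42.0, limma 3.58.1 voom, other scalings and filters, a replicate block and leaving out each library.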

Additional observations from a re-analysis of the deposited data

How the results depend on the processing

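The median log2 change of the proteasome loci stayed negative under all 14 alternatives, and each of the 18 called loci kept its sign. Of the 27 loci that did not pass, 7 changed sign under at least 1 alternative: LOC_Os08g43540, LOC_Os06g07878, LOC_Os02g38810 and the 4 weakly expressed PCI loci. Of the 18 calls, 6 held under every alternative: activator subunit 4, both Ecm29 loci, assembly chaperone 4, LOC_Os09g37000 and LOC_Os01g32800. The other 12 calls, the increase at LOC_Os08g41730 among them, were lost without at least 1 of the libraries or with library totals; the cause was not tested. With upper-quartile factors 23 loci fell, 10 of them core loci. With library totals 8 fell, with 2 core, 2 regulatory particle and 3 PCI loci among them. Deviations of same-numbered libraries had small correlations (0.06, 0.13 and -0.03), and not every library correlated best with its own number. At the 19 abundant core loci, however, replicate 2 was the highest at 19 in J10 and at 17 in lad. Over all 22624 tested genes replicate 2 was the highest at 8613 in J10 and at 7303 in lad. Whether the replicate numbers pair the libraries at the proteasome loci was not tested. A fit with the replicate block called 24 loci in all and 9 core loci lower. Leaving out 1 library gave 7 to 29 calls in all, 3 to 26 lower and 3 to 4 higher, and a median from -0.35 to -0.19. By class this was 0 to 13 core loci lower and 0 to 1 higher, 1 to 5 regulatory particle loci lower and 1 to 7 PCI loci lower. The pathway lists then gave 32 to 60 lower and 74 to 105 higher, and all genes 7804 to 11191 calls. Depth limits the weakest core loci: the 95% interval of LOC_Os07g42260, near 2 CPM, ran from -0.53 to 1.27.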
